A study of Mus musculus with 8 samples.

Results

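The p53 target genes are genes that the tumour suppressor p53 switches on when DNA is damaged or an oncogene is active. The 33 members were taken from a list of established targets and matched by gene symbol to the probe sets of a mouse Affymetrix expression array. Probe sets with a single gene symbol were found for 31 of them, 57 probe sets in all, among 18193 genes measured. Bax and Fdxr, the remaining listed genes, were not analysed here, and neither was Trp53, the gene of p53 itself. The list was drawn up by function, with earlier results of these data known.

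Expression had been profiled on 8 arrays, 1 per sample, to set lines grown out of MYCN-driven tumours against the cells they came from. The 4 tumour lines, numbered 3 to 6, were derived from tumours that JoMa1 cells transfected with MYCN had formed in immunocompromised mice. A single array carries the label of JoMa1 cells given a GFP control vector, and the other 3 are of parental JoMa1. JoMa1 is a mouse neural crest precursor line kept dividing by a tamoxifen-activated MYC fusion protein, which all groups share, and no source used here says which groups received tamoxifen. The promoter that drives MYCN and any cloning of the transfected cells are likewise not stated, and lines from independent tumours may share a transfected stock. Separate cultures behind the parental arrays are not stated either, so p-values measure only the spread between these arrays, which may be technical.

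In unstressed cells p53 is held low by the ubiquitin ligase Mdm2, whose gene is itself a p53 target, so that the pair forms a negative feedback loop. Once stabilised, p53 raises the kinase inhibitor Cdkn1a and other brakes on the cell cycle, pro-apoptotic proteins such as Bbc3 and Pmaip1, DNA repair factors and regulators of metabolism. MYC-family oncoproteins are known to activate this response through the Cdkn2a product ARF, which blocks Mdm2, and loss of the response is a frequent route to tumours driven by MYC.

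Levels are the authors' RMA values on the log2 scale, ± gives the SD within a group, and differences carry standard errors (SE) from a limma fit over all genes. A gene was called higher or lower at a Benjamini-Hochberg adjusted p under 0.05. Array medians lay between 6.264 and 6.302, and the bacterial trpnX controls, which carry no mouse signal, read 3.84 to 4.04. The BioB controls averaged 7.70 on parental array 3 and 8.86 to 9.17 on all other arrays. Fits that leave out each tumour-line or parental array are given below. The brightest Mycn probe set averaged 14.17 in tumour lines, stood at 11.73 on the array labelled GFP-transfected and averaged 7.42 on parental arrays. Another Mycn probe set was called the opposite way, at 4.60 in tumour lines, 4.33 on the GFP-labelled array and 8.13 on parental arrays, and a further one was not called. On each of the called Mycn probe sets, the library labelled GFP-transfected stood nearer to the tumour lines than to the parental arrays. This goes against its label, and every direction drawn from that library has this limit. For Gapdh, the 3' probe set exceeded the 5' one, a sign of RNA quality, by 0.0922 to 0.151 in tumour lines and 0.0525 to 0.0782 on parental arrays. For Actb the order was the opposite, at 0.516 to 0.613 in tumour lines and 0.626 to 0.641 on parental arrays, and the part of either in the results was not tested. Of 13 neural crest markers, 2 rose (Msx1 and Snai2) and 4 fell in tumour lines (Tfap2b, Zic1, Pax3 and Ets1). For these and the other markers below, the background over all genes is 16.6% higher and 19.4% lower. Tfap2b averaged 4.62 in tumour lines and 9.82 on parental arrays, a difference of -5.20, and Zic1 averaged 4.95 in tumour lines and 9.43 on parental arrays, a difference of -4.48. The tumour lines were uneven for Zic1, which read 7.29 in line 5 and 3.85 to 4.72 in the other lines. Foxd3 stayed at 4.41 to 4.80 and Ngfr at 5.08 to 5.56 on all arrays. The part of these markers in the results was not tested. Of 10 leukocyte markers, which host cells in a tumour line would carry, 3 rose in tumour lines (Cd14, Cd68 and Lyz2) and 0 fell. Their mean level was 5.86 to 5.93 in tumour lines and 5.50 to 5.60 on parental arrays, and its part in the results was not tested, while the pan-leukocyte gene Ptprc stayed at 4.05 to 4.14 in tumour lines and at 3.90 to 4.37 on parental arrays. The mean level of 6 endothelial markers was 4.92 to 5.13 in tumour lines and 4.89 to 5.03 on parental arrays, and 0 of them were called (limma; 0 also passed an unadjusted p under 0.05).

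Most p53 target genes were lower in the MYCN tumour lines than in parental JoMa1. Of the 31 measured, 26 were called, against 36.0% of all genes. Of these, 21 fell and 5 rose, where 19.4% of all genes fell and 16.6% rose. The median difference of the members was -0.791 and that of all genes 0.0132. A fall of at least 2-fold was found for 12 members, against 3.93% of all genes, and a rise of that size for 1, against 4.92%. All 4 tumour lines lay below all 3 parental arrays for 22 members and above them for 5, where the background over all genes was 23.2% below and 21.2% above. The groups overlapped for 4 members, while 44.4% of all genes did not overlap. The median deviation from the parental mean was -0.698, -0.796, -0.82 and -0.806 in tumour lines 3, 4, 5 and 6, and 0.012 on the array labelled GFP-transfected. In bulk samples such as these, fewer cells expressing a gene and less RNA per cell cannot be told apart.

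**Figure D1:**
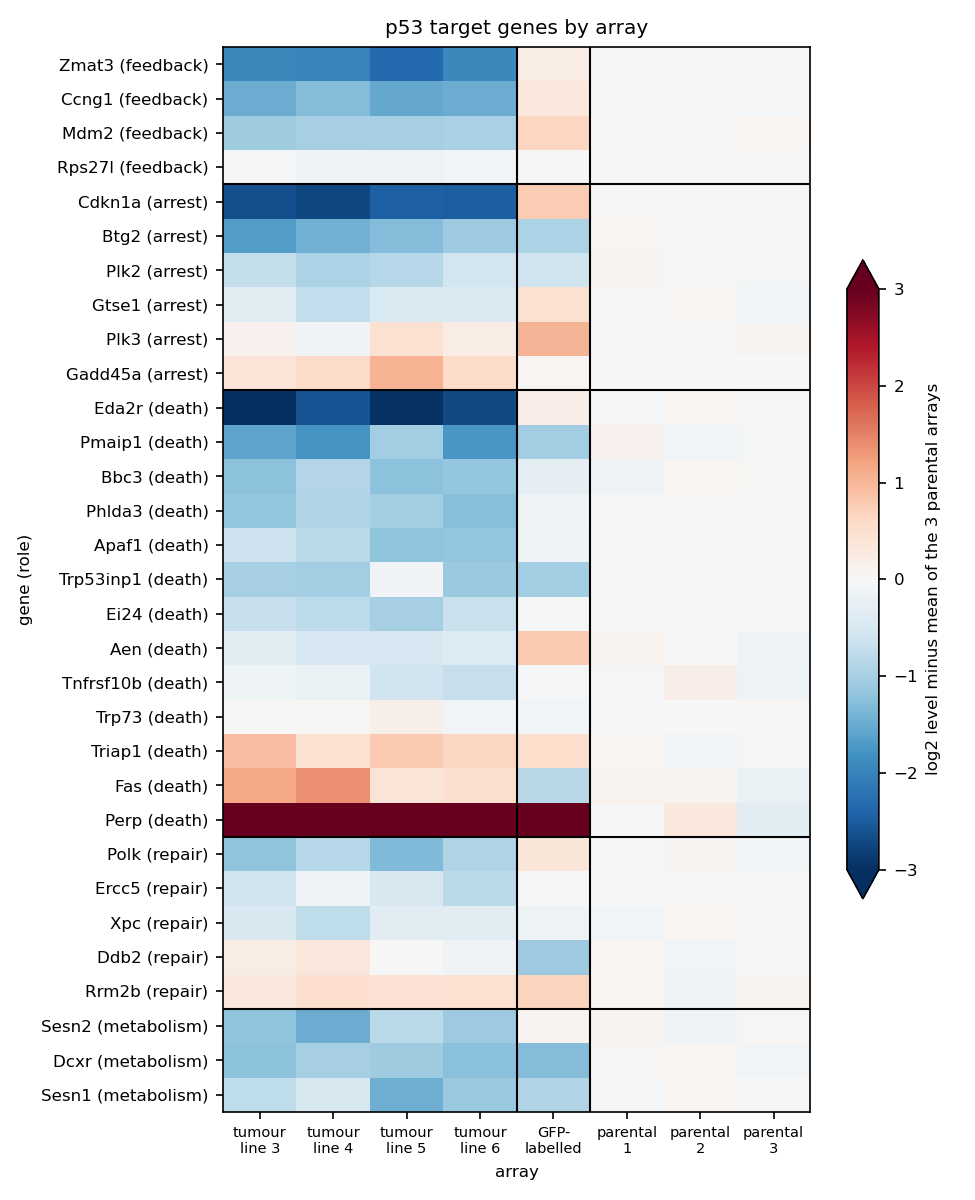
Heat map of 31 p53 target genes (rows, grouped by role) on 8 arrays (columns), coloured by the log2 level minus the mean of the 3 parental arrays, with colours saturating at 3 in either direction. The 4 tumour-line columns are mostly blue (lower), Perp is red (higher) in them and on the GFP-labelled array, and the GFP-labelled column holds both colours.

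The promoters show which members hold, near an annotated start, an exact match to the consensus of the sequence that p53 is known to bind. Sites with mismatches and sites outside the windows were not searched. RefSeq promoter windows, on GRCm38.p6 and running from 250 bases before to 50 bases after an annotated start, were found for 25 of the 33 listed genes. Aen, Apaf1, Bax, Bbc3, Btg2, Ccng1, Cdkn1a, Dcxr, Eda2r, Ei24, Ercc5, Fas, Fdxr, Gadd45a, Gtse1, Mdm2, Phlda3, Plk2, Plk3, Polk, Rps27l, Sesn1, Sesn2, Triap1 and Trp73 had a window. Windows were searched for the p53 half-site consensus, a motif of 10 bases that is its own reverse complement, so that 1 search covers both strands. It was found in 12 of the 34 windows of members (35.3%) and in 8.36% of all 32851 windows. The list was made of established p53 targets, so the higher share among members is no separate evidence about them. A pair of exact half-sites at most 13 bases apart, the spacing allowed in a whole p53 response element, was found in 1 of the 34 windows of members. That window is of Cdkn1a, and 0.0731% of all windows held such a pair. A match is a description of the letters in the window and does not show that p53 binds there. Windows of the 4 named genes with the largest differences that hold a match are printed here, 5' to 3' on the strand of the gene, with each match in capitals.
Cdkn1a: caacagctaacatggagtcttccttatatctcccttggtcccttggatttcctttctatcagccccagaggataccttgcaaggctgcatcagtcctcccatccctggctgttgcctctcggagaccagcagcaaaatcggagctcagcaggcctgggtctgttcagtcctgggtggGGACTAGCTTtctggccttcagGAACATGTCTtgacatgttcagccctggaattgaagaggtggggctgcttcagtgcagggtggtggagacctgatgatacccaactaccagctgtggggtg
Ccng1: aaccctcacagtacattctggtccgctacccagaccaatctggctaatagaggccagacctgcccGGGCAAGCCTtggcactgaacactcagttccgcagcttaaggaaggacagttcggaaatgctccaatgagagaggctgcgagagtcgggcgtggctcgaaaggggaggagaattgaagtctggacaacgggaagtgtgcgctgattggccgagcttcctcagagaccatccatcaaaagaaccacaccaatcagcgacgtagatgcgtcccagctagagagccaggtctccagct
Polk: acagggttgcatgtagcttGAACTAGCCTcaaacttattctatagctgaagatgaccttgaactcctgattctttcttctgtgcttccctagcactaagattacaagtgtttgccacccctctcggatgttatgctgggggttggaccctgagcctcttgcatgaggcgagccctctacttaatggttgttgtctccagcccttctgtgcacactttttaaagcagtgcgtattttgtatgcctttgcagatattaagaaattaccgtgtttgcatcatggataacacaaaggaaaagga
Mdm2: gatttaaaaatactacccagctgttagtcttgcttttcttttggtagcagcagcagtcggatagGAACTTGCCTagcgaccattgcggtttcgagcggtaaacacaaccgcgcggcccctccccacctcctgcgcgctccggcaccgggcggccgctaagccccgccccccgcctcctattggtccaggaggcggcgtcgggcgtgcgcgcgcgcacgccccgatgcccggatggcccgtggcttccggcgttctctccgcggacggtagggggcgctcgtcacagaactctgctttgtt
The Cdkn1a window (chr17:29090729-29091028, plus strand) is 1 of 2 for that gene and holds matches that begin at -73 and -51 relative to the annotated start. The 10 bases directly after the second match, tgacatgttc, differ from the consensus at 1 base and so were not marked. Which of these stretches p53 binds was not tested. The other windows lie on the minus strand, that of Ccng1 at chr11:40755237-40755536 with its match at -185, that of Polk (1 of 2 for the gene) at chr13:96519138-96519437 with its match at -231, and that of Mdm2 at chr10:117710709-117711008 with its match at -186. All 4 genes fell in tumour lines, with values given below by role. The single window of Eda2r, which had the largest fall of all members, holds no match, and the window of Gadd45a, which rose, holds one.

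Of the 4 feedback genes, 3 fell and 0 rose, with a median difference of -1.23, and for these and the other roles the background over all genes is 19.4% lower and 16.6% higher. Mdm2, the ubiquitin ligase that restrains p53, read 9.86, 9.93, 9.93 and 9.95 in tumour lines 3 to 6, 11.56 on the array labelled GFP-transfected and 10.93, 10.86 and 10.99 on parental arrays. The tumour lines lay below every parental array and the GFP-labelled library above them. The difference between tumour lines and parental arrays was -1.01 (SE 0.07, 2.02-fold lower, limma adjusted p = 9.81e-06). The spread of Mdm2 over the tumour lines (SD 0.04) was the smallest of any member. A further Mdm2 probe set differed by -0.99 and was called, and the dimmest one by -0.11 and was not.

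Ccng1, the cyclin G1 gene, whose product directs a phosphatase to Mdm2, read 10.82, 11.02, 10.78 and 10.82 in tumour lines, 12.64 on the GFP-labelled array and 12.33, 12.32 and 12.29 on parental arrays. It fell by 1.46 on the log2 scale (SE 0.08, 2.74-fold, limma adjusted p = 3.3e-06), and its other probe sets gave -1.69 and -2.255. Zmat3, a zinc finger gene whose RNA-binding product acts on p53 mRNA in human cells, read 9.15, 9.09, 8.75 and 9.15 in tumour lines, 11.29 on the GFP-labelled array and 11.10, 11.04 and 11.07 on parental arrays. Neither gene overlapped between tumour lines and parental arrays, and Zmat3 fell by 2.04 (SE 0.11, 4.11-fold, limma adjusted p = 3.09e-06). Rps27l, a ribosomal protein paralogue whose product binds Mdm2, was bright throughout, 13.78 ± 0.04 in tumour lines and 13.88 ± 0.03 on parental arrays. Its difference of -0.11 (SE 0.06) was not called (limma adjusted p = 0.236), although the groups did not overlap.

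Among the arrest genes, 4 of 6 fell and 1 rose, with a median difference of -0.632. Cdkn1a, which encodes the kinase inhibitor p21, read 8.16, 8.08, 8.35 and 8.32 in tumour lines, 11.56 on the GFP-labelled array and 10.83, 10.83 and 10.73 on parental arrays. Every tumour line was below every parental array by more than 2 log2 units, and the GFP-labelled library was the highest of all. The fall was -2.57 (SE 0.09, 5.94-fold, limma adjusted p = 2.91e-07), and the second probe set gave -2.85. Btg2, an antiproliferative transcriptional cofactor gene, read 9.07, 9.32, 9.45 and 9.65 in tumour lines, 9.80 on the GFP-labelled array and 10.80, 10.75 and 10.69 on parental arrays. The GFP-labelled library lay nearer to the tumour lines here, and the fall in tumour lines was -1.38 (SE 0.13, limma adjusted p = 6.94e-05).

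The kinase gene Plk2 fell by 0.77 (SE 0.10), and Gtse1, whose product binds p53 and moves it out of the nucleus in human cells, by 0.50 (SE 0.10). A dimmer Plk2 probe set gave -0.08 and was not called. Plk3, a related stress kinase gene, read 7.81, 7.59, 8.16 and 7.93 in tumour lines, 8.71 on the GFP-labelled array and 7.64, 7.67 and 7.78 on parental arrays. Tumour lines and parental arrays overlapped, the difference of 0.18 (SE 0.13) was not called (limma adjusted p = 0.322), and the GFP-labelled library stood above all others. Gadd45a, a growth arrest gene induced by DNA damage, went the other way, at 9.42 ± 0.27 in 4 tumour lines and 8.77 ± 0.01 on 3 parental arrays (0.64, SE 0.14, limma adjusted p = 0.00648).

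**Figure D2:**
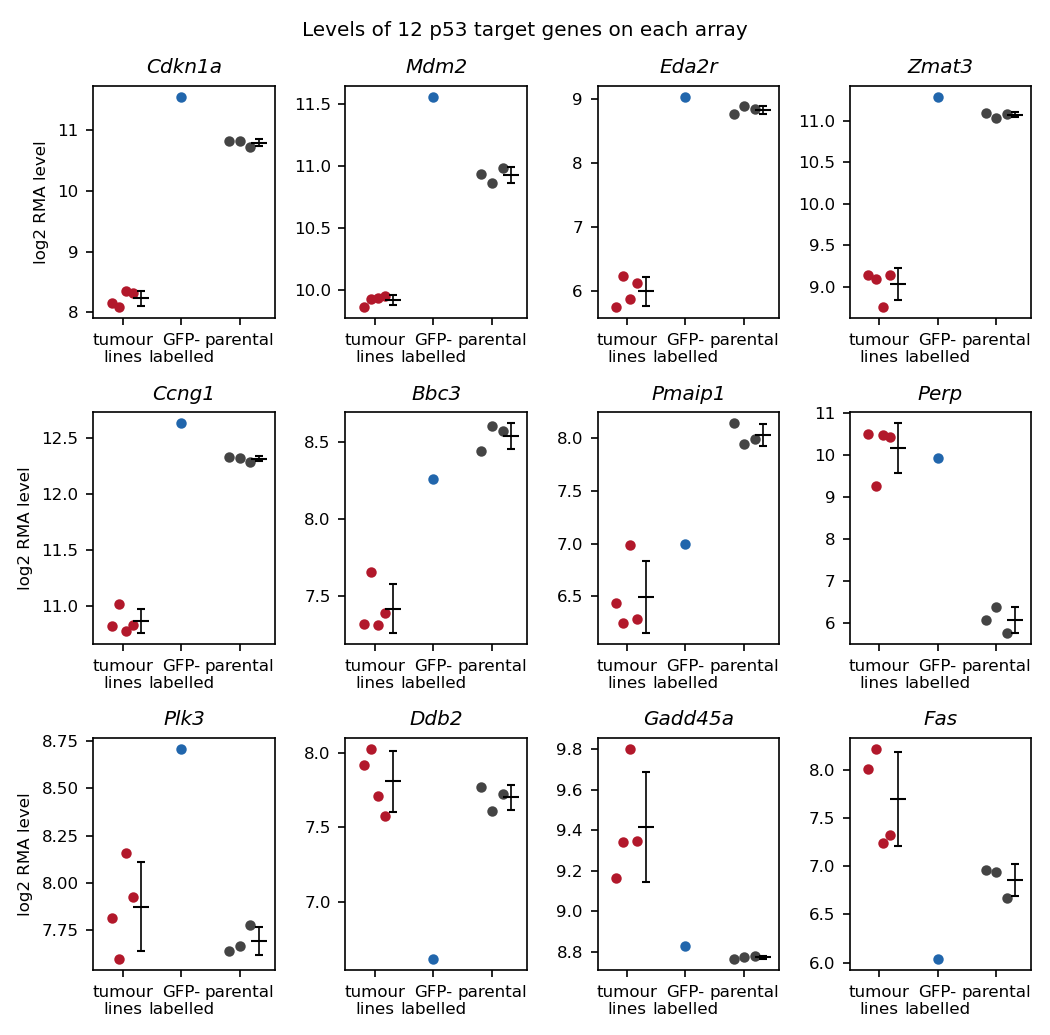
Log2 RMA level of 12 p53 target genes on each array (points), with the mean and SD beside the 4 tumour lines and the 3 parental arrays, and each panel on its own axis that does not start at 0. Cdkn1a, Mdm2, Eda2r, Zmat3 and Ccng1 are lowest in tumour lines and highest on the GFP-labelled array, whereas Perp is high in both.

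Cell death genes split, with 8 of 13 lower, 3 higher and a median difference of -0.791. The largest fall of any member was that of Eda2r, the gene of a TNF-family receptor for ectodysplasin A2. It read 5.74, 6.24, 5.87 and 6.12 in tumour lines, 9.05 on the GFP-labelled array and 8.77, 8.90 and 8.84 on parental arrays. No tumour line came near a parental array, and the difference was -2.84 (SE 0.12, 7.18-fold lower, limma adjusted p = 1.2e-06).

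The BH3-only genes Bbc3 and Pmaip1 encode PUMA and NOXA, which unleash mitochondrial apoptosis. Bbc3 read 7.32, 7.65, 7.31 and 7.39 in tumour lines, 8.26 on the GFP-labelled array and 8.44, 8.61 and 8.57 on parental arrays. Pmaip1 read 6.44, 6.25, 6.99 and 6.29 in tumour lines, 6.99 on the GFP-labelled array and 8.15, 7.95 and 7.99 on parental arrays. In both genes all tumour lines were below all parental arrays, and for Pmaip1 line 5 stood level with the GFP-labelled library. The differences were -1.12 (SE 0.10, limma adjusted p = 5.83e-05) for Bbc3 and -1.54 (SE 0.17, limma adjusted p = 0.000209) for Pmaip1.

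Phlda3, whose product opposes AKT signalling at the membrane, read 9.64, 9.92, 9.77 and 9.55 in tumour lines, 10.69 on the GFP-labelled array and 10.86, 10.84 and 10.78 on parental arrays. It fell by 1.11 (SE 0.10, limma adjusted p = 5.18e-05) with no overlap. Smaller falls were found for the apoptosome gene Apaf1 (-0.96, SE 0.14), the endoplasmic reticulum protein gene Ei24 (-0.79, SE 0.09), the stress protein gene Trp53inp1 (-0.81, SE 0.23) and the nuclease gene Aen (-0.44, SE 0.08). Another Aen probe set also fell (-0.57), while the remaining ones gave -0.20 and -0.25 and were not called. The call of Trp53inp1 (limma adjusted p = 0.0227) ended when any tumour-line or parental array other than line 5 was left out, with adjusted p-values up to 0.0722 in those fits. Its dimmer probe set differed by 0.08 and was not called.

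Perp, which encodes a desmosomal membrane protein and is the member with the largest change of all, was the strongest exception. It read 10.50, 9.27, 10.48 and 10.43 in tumour lines, 9.93 on the GFP-labelled array and 6.08, 6.39 and 5.76 on parental arrays. Every transfected line was far above the parental cells, with a difference of 4.09 for tumour lines (SE 0.31, 17.1-fold, limma adjusted p = 2.41e-05). Triap1, whose product restrains apoptosis, rose by 0.70 (SE 0.11, limma adjusted p = 0.0015). The death receptor gene Fas averaged 7.70 ± 0.49 in 4 tumour lines and 6.86 ± 0.17 on 3 parental arrays (0.84, SE 0.24, limma adjusted p = 0.0246). That call ended without tumour line 3 (adjusted p = 0.0611) and without any 1 of the parental arrays (0.0614, 0.0621 and 0.0965).

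The TRAIL receptor gene Tnfrsf10b (-0.40, SE 0.16) was not called (limma adjusted p = 0.0883). It was called with its other probe set (-0.28, adjusted p = 0.0385), with the mean of its probe sets (-0.34, adjusted p = 0.0427) and without tumour line 3 (-0.50, adjusted p = 0.0428). Trp73, the gene of a p53 relative, was the member nearest to 0. It read 5.30, 5.35, 5.49 and 5.23 in tumour lines, 5.22 on the GFP-labelled array and 5.29, 5.29 and 5.35 on parental arrays, with a difference of 0.03 (SE 0.08). The groups overlapped.

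Of the 5 DNA repair genes, 3 fell and 1 rose, with a median difference of -0.479. Polk, the gene of a polymerase that copies past damaged bases, read 7.83, 8.17, 7.70 and 8.13 in tumour lines, 9.40 on the GFP-labelled array and 9.04, 9.11 and 8.95 on parental arrays. The tumour lines were the lowest and the GFP-labelled library the highest, and the fall in tumour lines was -1.08 (SE 0.12, limma adjusted p = 0.000236). A dimmer Polk probe set gave -0.33 and was called (limma adjusted p = 0.0259). The excision repair genes Xpc, for damage recognition, and Ercc5, for the 3' incision, fell by 0.48 (SE 0.11) and 0.50 (SE 0.14). The call of Ercc5 (limma adjusted p = 0.0252) was lost with the mean of its probe sets (-0.18, adjusted p = 0.228), without tumour line 3 (0.0603) and without any 1 parental array (0.0644 to 0.0857).

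Ddb2, which also recognises damage and whose induction by p53 is known from human cells, read 7.92, 8.03, 7.71 and 7.58 in tumour lines, 6.61 on the GFP-labelled array and 7.77, 7.61 and 7.72 on parental arrays. Tumour lines and parental arrays overlapped (0.11, SE 0.11, limma adjusted p = 0.527), and the GFP-labelled library was the lowest. Rrm2b, the small subunit of a ribonucleotide reductase that supplies bases for repair, rose by 0.43 (SE 0.08, limma adjusted p = 0.00246), and its other 3 probe sets differed by 0.51, 0.63 and 0.65 and were called.

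All 3 metabolic members fell, with a median difference of -1.14. Sesn2, whose product restrains mTORC1 under stress, read 7.74, 7.45, 8.12 and 7.84 in tumour lines, 9.02 on the GFP-labelled array and 9.02, 8.83 and 8.98 on parental arrays. Dcxr, the gene of a dicarbonyl and xylulose reductase, read 8.69, 8.92, 8.86 and 8.67 in tumour lines, 8.63 on the GFP-labelled array and 9.97, 9.97 and 9.83 on parental arrays. The tumour lines were below the parental arrays in both genes, and the GFP-labelled library sat with the parental arrays for Sesn2 and with the tumour lines for Dcxr. Sesn2 fell by 1.15 (SE 0.14, limma adjusted p = 0.000394), Dcxr by 1.14 (SE 0.09, limma adjusted p = 2.48e-05) and Sesn1, a relative of Sesn2, by 0.95 (SE 0.21, limma adjusted p = 0.00676). A further Sesn2 probe set gave -0.76 and was called. The dimmest Sesn1 probe set gave -0.04 and was not called, whereas its others were called lower. With the GFP-labelled array pooled with the parental arrays, Dcxr (-0.82, adjusted p = 0.0622), Sesn1 (-0.73, adjusted p = 0.0762), Rrm2b (0.26, adjusted p = 0.267) and Trp53inp1 (-0.56, adjusted p = 0.211) were not called.

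The library labelled GFP-transfected shared no common direction over the members. Against parental arrays 11 members were called, beside 16.1% of all genes. Of these, 6 were higher and 5 lower, with a median difference of 0.012, where 7.43% of all genes were higher and 8.66% lower. A rise of at least 2-fold was called for 2 members (1.85% of all genes) and a fall of that size for 3 (3.90%). This comparison rests on 1 array, which is assumed to vary like the other groups, and it shares the parental arrays with the comparison above. Perp rose by 3.85 (SE 0.47, limma adjusted p = 0.00101), Plk3 by 1.02 (SE 0.19), Aen by 0.78 (SE 0.12), Cdkn1a by 0.76 (SE 0.13), Rrm2b by 0.68 (SE 0.12) and Mdm2 by 0.63 (SE 0.10). The adjusted p-values of the last 5 lay between 0.00282 for Aen and 0.00823 for Plk3 in limma. Second probe sets of Cdkn1a (0.80) and Mdm2 (0.86) and all further ones of Rrm2b were also higher and called. The dimmest probe sets of Mdm2 (0.02) and Aen (0.19) were not called, while the other further ones of Aen (0.96 and 0.63) were.

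The members that were lower in that library were Dcxr (-1.29, SE 0.13), Ddb2 (-1.09, SE 0.17), Pmaip1 (-1.03, SE 0.26), Btg2 (-0.95, SE 0.19) and Plk2 (-0.59, SE 0.15), with limma adjusted p-values of 0.000393 to 0.0325. Pmaip1 and Plk2 lost their calls whichever parental array was left out (adjusted p-values of 0.0636 to 0.0895), so that 3 members were then lower. With the mean of its probe sets Plk2 was also not called (-0.23, adjusted p = 0.276). Of the endothelial markers, Cdh5 read 6.71 in that library and 4.63 to 4.84 on parental arrays, and the part of other cells in its values was not tested.

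Set directly against that library, tumour lines differed in 16 members, beside 30.3% of all genes. They were lower in 14 and higher in 2, where 16.4% of all genes were lower and 14.0% higher. A difference of at least 2-fold was called lower for 8 members (5.32% of all genes) and higher for 2 (6.66%). The median difference was -0.501 for the members and 0.0207 for all genes. This comparison shares the tumour lines with the first one, and its values stand beside those given above. Cdkn1a differed by -3.33 (SE 0.13, 10.1-fold lower), Eda2r by -3.05 (SE 0.18), Zmat3 by -2.26 (SE 0.15), Ccng1 by -1.78 (SE 0.11), Mdm2 by -1.65 (SE 0.10), Polk by -1.44 (SE 0.18), Sesn2 by -1.23 (SE 0.21) and Aen by -1.22 (SE 0.11), with limma adjusted p-values of 0.00261 or lower. Fas (1.67, SE 0.35) and Ddb2 (1.20, SE 0.17) were higher in tumour lines. Perp (0.24, SE 0.45), Dcxr (0.15, SE 0.13), Btg2 (-0.43, SE 0.18) and Pmaip1 (-0.50, SE 0.25) were not called, which does not show that the groups were alike.

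**Figure D3:**
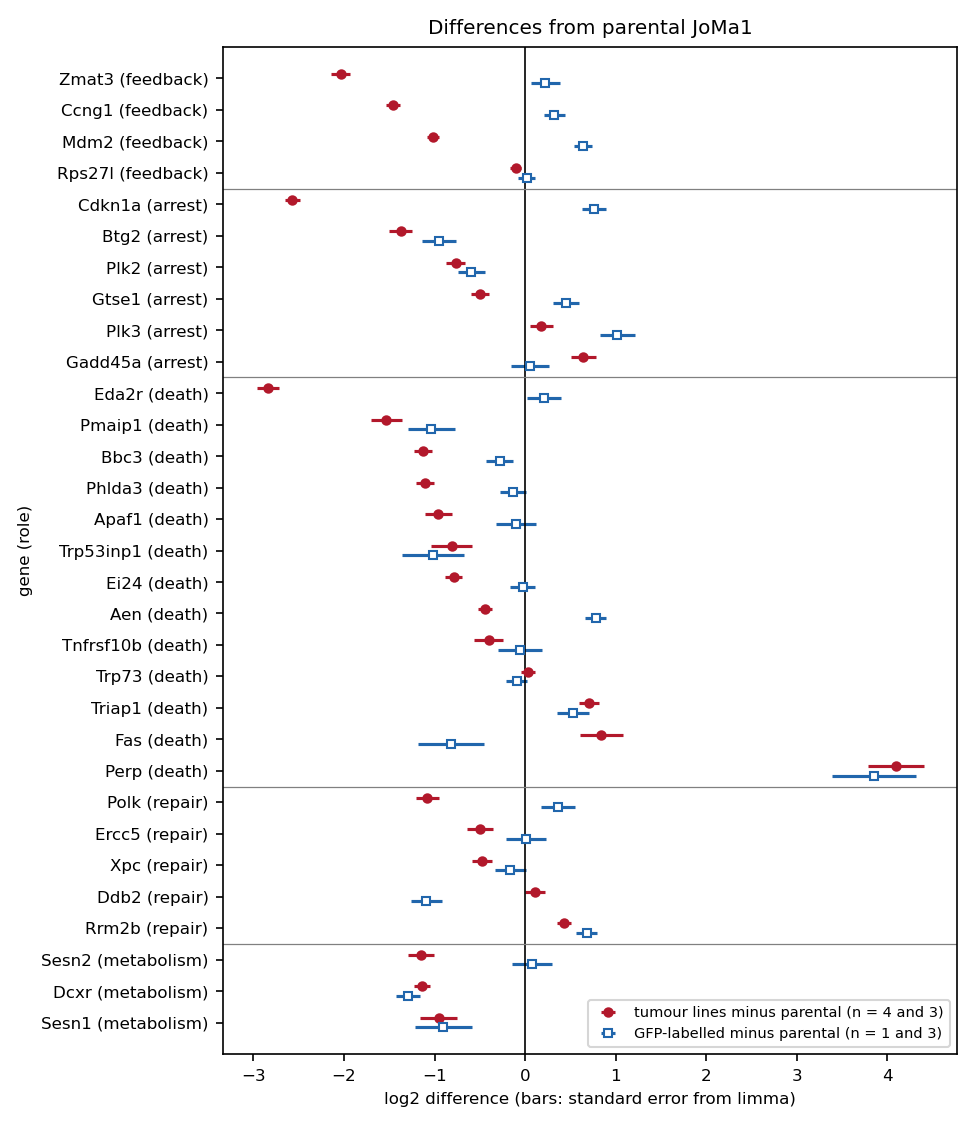
Log2 differences of 31 p53 target genes from parental JoMa1, with standard errors from limma as bars, for tumour lines (filled circles, 4 against 3 arrays) and for the library labelled GFP-transfected (open squares, 1 against 3 arrays). Cdkn1a, Mdm2 and Aen are lower in tumour lines and higher in the GFP-labelled library, Perp is higher in both, and Dcxr, Btg2, Pmaip1 and Plk2 are lower in both.

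Regulators of p53 were read from a separate list of 24 genes, of which 22 were measured. In tumour lines against parental arrays 12 fell (54.5%) and 1 rose (4.55%), where 19.4% of all genes fell and 16.6% rose, and the median difference was -0.287. Mdm4, the partner of Mdm2 that masks the activating domain of p53, read 7.46, 7.79, 7.21 and 7.78 in tumour lines, 9.33 on the GFP-labelled array and 9.36, 9.06 and 9.28 on parental arrays. The tumour lines were below all other arrays (-1.67, SE 0.15, limma adjusted p = 6.59e-05). Its probe sets disagreed, since 1 more fell (-1.0) and the others gave -0.19 and 0.13 and were not called. With its brightest probe set left out, which can bind several transcripts, the next brightest gave -0.19 (adjusted p = 0.202).

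Ppp1r13b, which encodes ASPP1, a p53-binding protein that favours apoptosis, had the largest fall on the list. It read 6.98, 5.92, 6.77 and 6.63 in tumour lines, 9.36 on the GFP-labelled array and 9.48, 9.56 and 9.56 on parental arrays (-2.96, SE 0.22, limma adjusted p = 2.26e-05). The Polycomb gene Bmi1, which represses Cdkn2a, fell by 0.94 (SE 0.09). The ubiquitin ligase gene Rchy1, whose product targets p53, was the gene that rose (0.57, SE 0.09, limma adjusted p = 0.00127).

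Ppm1d, a phosphatase gene that is a p53 target and shuts the response off, read 8.98, 8.88, 9.09 and 9.02 in tumour lines, 9.99 on the GFP-labelled array and 9.29, 9.25 and 9.30 on parental arrays. It fell by 0.29 in tumour lines (SE 0.07, limma adjusted p = 0.0133) and was 0.71 higher in the GFP-labelled library (SE 0.11, limma adjusted p = 0.00327). The fall was lost without parental array 1 (adjusted p = 0.0519) or 3 (0.0501) and with the GFP-labelled array pooled with the parental ones (-0.46, adjusted p = 0.0633). A second Ppm1d probe set gave -0.26 in tumour lines and was not called (limma adjusted p = 0.0882). In the GFP-labelled library it was 0.62 higher and called. Cdkn2a, the gene of the tumour suppressors p16 and ARF, read 12.08, 12.57, 12.55 and 12.18 in tumour lines, 11.02 on the GFP-labelled array and 12.41, 12.20 and 12.17 on parental arrays. Tumour lines and parental arrays overlapped (0.08, SE 0.14, limma adjusted p = 0.697), while the GFP-labelled library was 1.24 lower than the parental mean (SE 0.21, limma adjusted p = 0.00523).

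**Figure D4:**
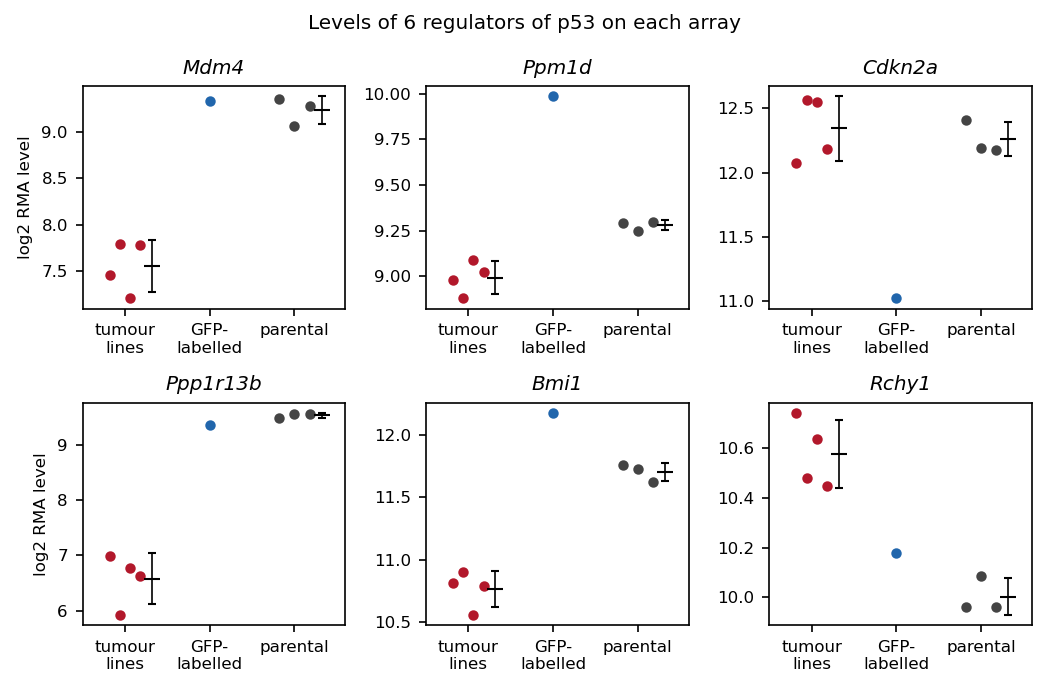
Log2 RMA level of 6 regulators of p53 on each array (points), with the mean and SD beside the 4 tumour lines and the 3 parental arrays, and each panel on its own axis that does not start at 0. Mdm4, Ppp1r13b and Bmi1 are lowest in tumour lines, Rchy1 is highest there, Ppm1d is highest and Cdkn2a lowest on the GFP-labelled array.

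A further list of 30 genes reported as p53 targets, held calls in both directions. Of 26 measured, 10 rose (38.5%) and 9 fell (34.6%) in tumour lines against parental arrays, where 16.6% of all genes rose and 19.4% fell, and the median difference was 0.123. The largest rises were those of Dram1, a lysosomal membrane protein gene linked to autophagy (2.93, SE 0.15), the tetraspanin gene Cd82 (2.78, SE 0.09) and the BH3-only gene Bid (1.33, SE 0.14). The largest falls were those of the epoxide hydrolase gene Ephx1 (-1.84, SE 0.16), the microtubule-associated protein gene Psrc1 (-1.55, SE 0.07) and the zinc finger gene Zfp365 (-1.47, SE 0.12). In limma the adjusted p of each was at most 0.000134. In the GFP-labelled library against parental arrays, Dram1 differed by -1.32, Cd82 by 0.66, Bid by 1.24, Ephx1 by -2.56, Psrc1 by -1.09 and Zfp365 by 0.54, of which only the value of Zfp365 was not called (adjusted p = 0.0829). Ephx1 was not called in tumour lines with that library pooled with the parental arrays (-1.20, adjusted p = 0.152).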

How the data were processed

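Each of 8 arrays has 1 deposited log2 value per probe set. The authors' processing used RMA (background correction, quantile normalization, summary over probes) and Partek, according to the submitters' processing notes, which give no versions. That the values are log2 follows from their range. RMA compresses dim signals, so small levels show understated differences, and a change in total RNA per cell cannot be seen. Of 45101 probe sets, 34945 carried 1 gene symbol in the platform annotation. The RefSeq gene table of GRCm38.p6 held the gene IDs of 34754 annotated probe sets and changed 0 symbols. The probe set brightest on average stood for its gene, and 3 members used one that can bind several transcripts. Further probe sets of a gene were called in a fit over all probe sets.

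Comparisons used limma 3.58.1 in R 4.3.3 (lmFit and eBayes on 8 arrays with a coefficient for each group, two-sided, Benjamini-Hochberg over 18193 genes), tested on simulated data. Values on every array were given for members called with a difference of at least 1 (log2) from parental arrays in tumour lines or the GFP-labelled library, for Cdkn1a, Mdm2, Bbc3 and Pmaip1, and for the member nearest to 0. From the lists of regulators and of other reported targets the 3 largest called rises and falls in tumour lines were named, with Mdm4, Cdkn2a and Ppm1d whatever the test. The members and lists were chosen with earlier results of these data known. Scan dates and detection calls were not used here. The number of arrays limits the precision.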

Additional observations from a re-analysis of the deposited data

Results flagged for a closer look

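In the 4 tumour lines, a line was marked where its gap to the nearest other line exceeded Dixon's critical share of the range, which chance does in about 1 of 20 groups. This held for 5 of 45 genes checked, 3 of them among the 31 members. Trp63 was checked because its values had been seen, and other genes outside the members mostly for large differences. The count over all genes checked can therefore not be set against that rate. Perp read 9.27 in tumour line 4 and 10.43 to 10.50 in the other lines. Trp53inp1 read 11.19 in line 5 and 10.19 to 10.30 in the others, which puts line 5 next to the parental arrays. Zmat3 read 8.75 in line 5 and 9.09 to 9.15 in the others. Cd82 read 10.08 in line 3 and 10.31 to 10.34 in the others. Trp63, the gene of a p53 relative, read 8.86 in line 5 and 5.51 to 5.64 in the others.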

How the results depend on the processing

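Of the 26 members called in tumour lines against parental arrays, 20 kept their direction and call under every alternative run, and 6 lost the call under at least 1, namely Fas, Trp53inp1, Ercc5, Rrm2b, Sesn1 and Dcxr. Alternatives averaged the probe sets of a gene or used each probe set singly, left out _x_at and _s_at probe sets, dim genes, the GFP-labelled array or each other array, pooled the GFP-labelled array with the parental ones, or changed the variance prior, array weights, normalization or centring. Leaving arrays out gave 19 to 21 lower and 4 to 5 higher members, medians of -0.833 to -0.731 and 5030 to 6649 called genes. The median was -0.497 with the mean of probe sets and -0.638 with the GFP-labelled array pooled with the parental ones. That pooling gave 18 lower and 4 higher members, and leaving out _x_at and _s_at probe sets gave 22 lower and 5 higher. Testing each probe set singly gave 11843 calls (6547 genes in the fit by gene), 5015 (2927) for the GFP-labelled library against parental arrays and 10117 (5514) for tumour lines against that library, since more features were tested; the counts over all genes in the last pair of comparisons were added after seeing the data. For the GFP-labelled library, leaving arrays out gave 3 to 7 lower and 6 to 9 higher members and 1982 to 3388 called genes. All 16 calls between tumour lines and that library stayed under the alternatives run.

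Signs turned only for differences that were not called, and the cause was not tested. These were Plk3 (-0.074) with the GFP-labelled array pooled and Trp73 (-0.052 with the mean of probe sets, -0.022 to 0.066 without single arrays). In the GFP-labelled library against parental arrays they were Ercc5 (-0.0080 renormalized, -0.012 to 0.035 without single arrays), Rps27l (-0.0015 renormalized) and Tnfrsf10b (-0.13 to 0.042 without single arrays). For tumour lines against that library, the sign of Trp53inp1 (0.20 in the main fit) turned only without line 5 (-0.033 to 0.30 without single arrays). That of Sesn1 turned with the mean of probe sets (0.039), renormalized (0.035) and without line 5 (-0.21 to 0.12 without single arrays). Without _s_at probe sets Mdm4 was represented by its next brightest one and not called (-0.19, adjusted p = 0.202), while a dimmer one was called lower (-1.0). No paired analysis was possible because the sample titles do not pair parental arrays with tumour lines.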

Other observations

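Trp63 was singled out after its values were seen. Its brightest probe set read 5.55, 5.51, 8.86 and 5.64 in tumour lines 3 to 6, 5.05 on the array labelled GFP-transfected and 4.998, 4.75 and 5.02 on parental arrays. All tumour lines lay above all parental arrays, and line 5 stood more than 3 log2 units above the other lines. The difference of 1.47 (SE 0.76) was not called (limma adjusted p = 0.18), and without line 5 it was 0.65 (SE 0.09, adjusted p = 0.00137). A second Trp63 probe set read 5.59 in line 5 and 4.49 to 4.59 in the other lines, while the remaining ones read 4.74 and 4.86 in line 5, near the level of the other arrays.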
